A study of Mus musculus with 21 samples.

Results

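Carbonic anhydrases convert carbon dioxide and water into bicarbonate and a proton, and back. In the large intestine the cytosolic enzymes supply both ions to exchangers in the membrane of surface colonocytes, which take up sodium and chloride, while membrane-bound enzymes work on the outer cell surface. The 8 genes described here are the rows of a mouse colon count table whose symbol is Car1, Car2, Car3, Car4, Car8, Car9, Car12 or Car13, 8 of 24062 genes. All 8 passed the filter on low counts, which left 15936 genes to be tested.

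The 21 RNA-seq libraries came from colon of C57BL/6 mice and fall into 7 groups of 3. Wild-type males gave a normal and a tumour group, and so did males carrying App NL-G-F, a knock-in that puts mutations linked to Alzheimer's disease into App, which encodes the amyloid precursor protein. Wild-type females gave a normal and a tumour group, and knock-in females a normal group only. The tumours carry the treatment label AOM/DSS, a carcinogen (azoxymethane) followed by a detergent-like irritant (dextran sulfate sodium). Normal colon is labelled non-treatment, whereas the design text of the series speaks of tissue beside tumours, or of colon in which none had formed, so the treatment of these libraries is uncertain. The labels give neither age nor the number of animals, and nothing says whether libraries of a group came from separate mice, so p-values measure the spread between libraries, which may be technical. The knock-in changes the coding sequence of App, which gene counts do not read, so the genotype labels could not be checked from these data. The series asks why mice with mutant App responded differently to AOM/DSS.

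Library totals ran from 3414123 to 26174008 counts. Levels are given as CPM (a gene's share of the library's counts on a common scale, with library sizes scaled by the TMM method), and n is 3 libraries a group throughout. Differences are log2 fold changes tested with edgeR (quasi-likelihood F test), and a gene was called at a Benjamini-Hochberg adjusted p under 0.05 over all tested genes. A fall in bulk tissue can mean fewer cells of a type or less RNA per cell, and the counts cannot tell these apart. The tissue label was checked against markers. Summed over 10 epithelial marker genes, the level ran from 8510 to 11739 CPM in normal colon and from 6326 to 9008 CPM in tumours. In wild-type mice these sums were lower in tumours without overlap, at 7467 to 7944 against 8510 to 11278 CPM in males. In wild-type females they were 6326 to 7542 against 10693 to 11739 CPM, while in knock-in males they overlapped. The sum over 10 smooth muscle markers ran from 2110 to 10405 CPM in normal colon and from 221 to 1116 CPM in tumours. All 10 smooth muscle markers fell in all 3 comparisons of tumour with normal colon, so the normal libraries held more RNA of these muscle genes than the tumours did.

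Compared per kb of exon, 3 genes dominated normal colon. Car1 and Car2 encode cytosolic enzymes, and Car4 a membrane-anchored enzyme on the luminal face of colonocytes. In wild-type female normal colon Car4 stood at 415 ± 192 CPM per kb (SD), Car1 at 394 ± 287 and Car2 at 223 ± 73.0. In knock-in female normal colon Car1 led with 542 ± 148 CPM per kb, followed by Car4 at 307 ± 6.33 and Car2 at 270 ± 29.4. These 3 genes were the top 3 in all 4 normal groups, in an order that varied between groups and whose steps were mostly smaller than the SD. Car9, a transmembrane enzyme, came next in all 4, at 18.7 to 24.4 CPM per kb, followed by the cytosolic Car13 at 7.37 to 9.82 CPM per kb. The means of Car12, Car8 and Car3 stayed under 3 CPM per kb in all 4, though single libraries reached 4.59 for Car12 and 3.36 for Car3.

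In all 3 tumour groups Car1 had the highest and Car2 the next highest mean, at 137 ± 44.8 and 54.7 ± 18.4 CPM per kb in wild-type males and at 48.2 ± 13.6 and 39.4 ± 5.68 in wild-type females. In wild-type female tumour replicate 3 the order turned (35.5 and 43.6). Knock-in male tumours had 241 ± 267 and 66.5 ± 33.5, with Car1 at 544 in replicate 1. In their replicate 3 Car3 (57.1) exceeded Car1 (42.0) and Car2 (41.4). The mean of Car4 dropped behind that of Car9 in all 3 tumour groups. Car4 stood at 4.91 ± 2.90 CPM per kb in wild-type male and 3.92 ± 1.18 in wild-type female tumours, against 12.4 ± 3.65 and 14.0 ± 1.87 for Car9. In knock-in male tumours Car4 was at 16.1 ± 8.54 and Car9 at 17.4 ± 3.22, a step smaller than the SD. There replicate 1 held more Car4 (25.3) than Car9 (17.1). The 8 genes together summed to 1949 ± 921 CPM in wild-type female normal colon and to 228 ± 5.74 CPM in the tumours. In wild-type males the sum was 1130 ± 658 CPM in normal colon and 363 ± 104 CPM in tumours. Knock-in males had 693 ± 194 CPM in normal colon and 658 ± 354 CPM in tumours, with 1065 CPM in tumour replicate 1 alone.

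**Figure D1:**
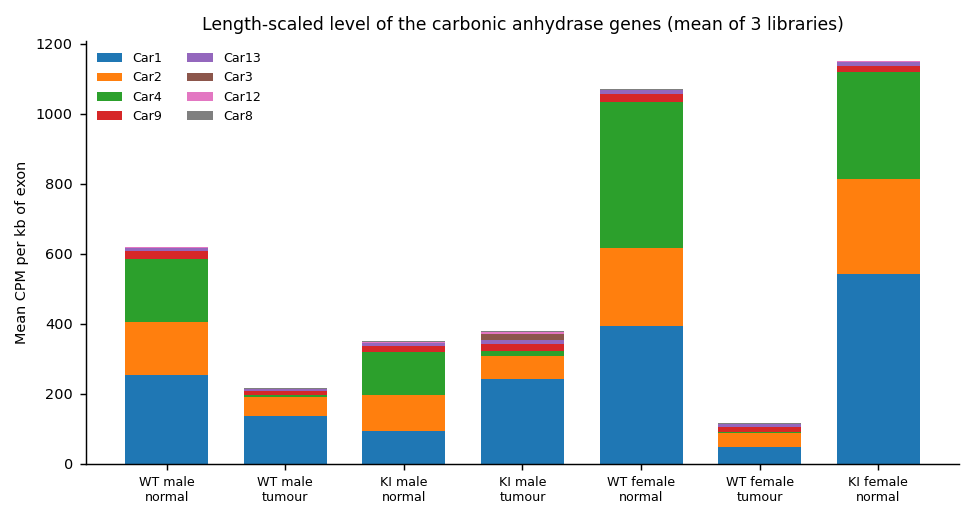
Stacked mean CPM per kb of exon (vertical axis, linear, from 0) of the 8 genes in each of the 7 groups (WT wild-type, KI knock-in; mean of 3 libraries, no error bars). Car1, Car2 and Car4 make up most of each normal bar, and the Car4 segment nearly vanishes in the 3 tumour bars.

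Of the 8 genes, 4 lie side by side on chromosome 3 within 259.0 kb, in the order Car13, Car1, Car3 and Car2 (RefSeq gene spans, GRCm38.p6, chr3:14641727-14900770). Car9 (chr4:43507026-43513729) and Car8 (chr4:8141493-8239041) are on chromosome 4, Car12 is on chromosome 9 (chr9:66712296-66766845) and Car4 on chromosome 11 (chr11:84957754-84966054). The clustered genes did not share a pattern. Over all 21 libraries Car1 and Car2 had a Pearson r of 0.85 in log2 CPM, but Car1 and Car13 0.35 and Car2 and Car3 -0.08. The points of such a correlation share library, tissue make-up and group.

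**Figure D2:**
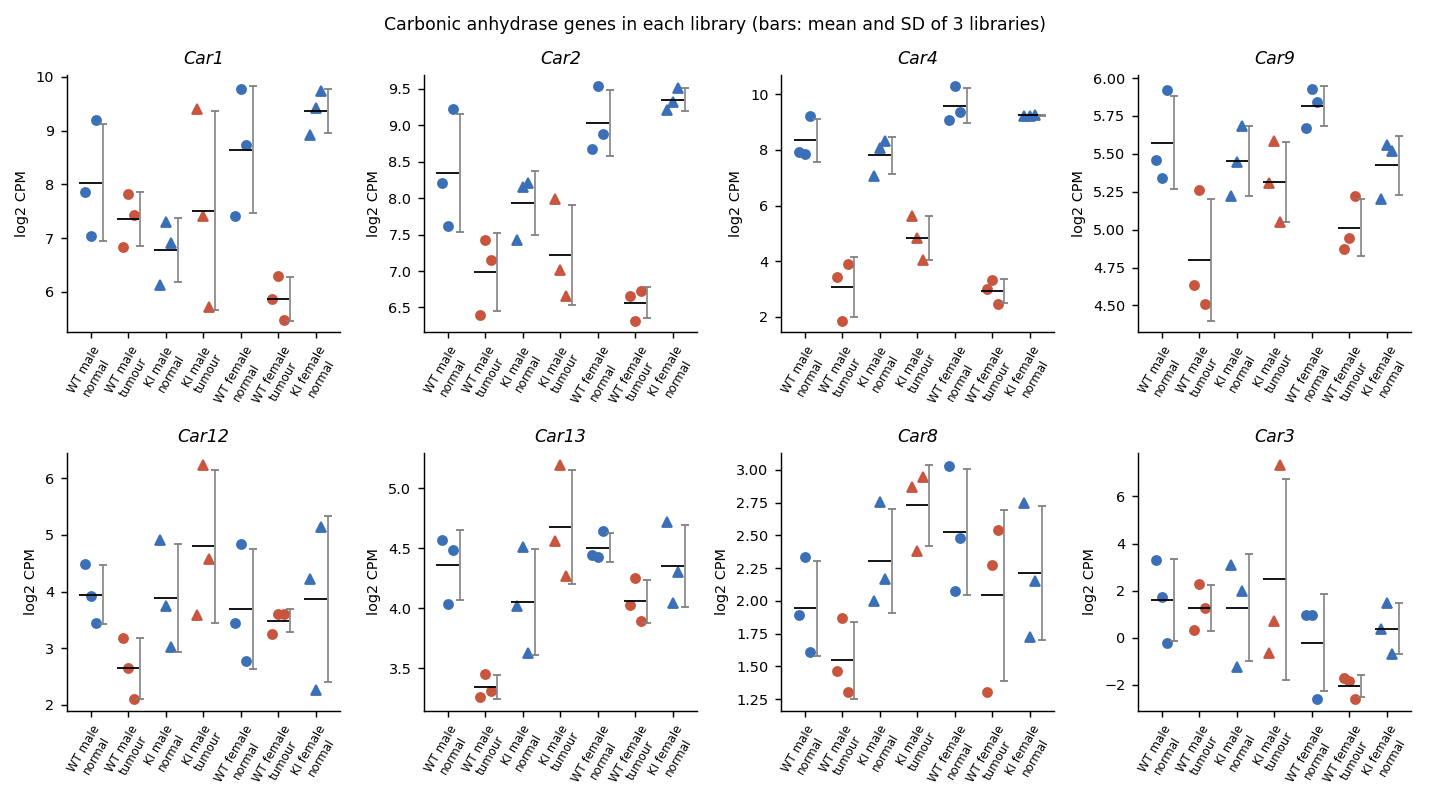
Level of each carbonic anhydrase gene as log2 CPM (vertical axis, a separate scale per gene) in each library of the 7 groups. Blue marks normal colon, red tumours, circles wild-type and triangles knock-in libraries; black lines are group means and grey bars the SD of 3 libraries. Car4 separates tumours from normal colon without overlap, while the high Car3 point is 1 knock-in male tumour library.

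Car4 fell in tumours of all 3 backgrounds and had the largest decrease of the 8 genes in each. It stood at 243, 233 and 599 CPM in wild-type male normal colon and at 10.7, 3.49 and 14.7 CPM in the tumours. In wild-type females it stood at 543, 1247 and 657 CPM in normal colon and at 7.88, 9.94 and 5.33 CPM in tumours. Every tumour library was below every normal library. In knock-in males Car4 stood at 132, 268 and 316 CPM in normal colon and at 49.7, 28.5 and 16.5 CPM in tumours, again without overlap, and these tumours were all above the wild-type male tumours. Wild-type male tumours held 34.4-fold less Car4 than normal colon (log2 fold change -5.10, SE 0.59, adjusted p = 1.97e-05 with edgeR). Wild-type female tumours held 105.8-fold less (log2 fold change -6.73, SE 0.63, adjusted p = 8.76e-07 with edgeR) and knock-in male tumours 7.53-fold less (log2 fold change -2.91, SE 0.52, adjusted p = 0.00279 with edgeR). Car4 kept its call in these 3 comparisons when any of the 21 libraries was left out and under each of the other alternatives.

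The difference between the genotypes was smaller than that between tissues and sat at the threshold. Knock-in male tumours had 3.04-fold more Car4 than wild-type male tumours (log2 fold change 1.61, SE 0.53, adjusted p = 0.0533 with edgeR). This did not pass, although it did in 3 of 21 fits that left out 1 library and in 4 of 12 other alternatives. Without knock-in male tumour replicate 1 the log2 fold change was 1.07 (edgeR adjusted p = 0.198). The tumour effect itself differed between knock-in and wild-type males by 2.19 on the log2 scale (SE 0.71, adjusted p = 0.0883 with edgeR), which did not pass either.

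Car4 varied together with genes of the absorptive surface cell. By the highest Pearson r of log2 CPM over the 21 libraries, its nearest neighbours were Aqp8, a water channel (r = 0.99), Slc26a3, the chloride-bicarbonate exchanger of the luminal membrane (0.99), and Ces2c, a carboxylesterase (0.99). Aqp8 had log2 fold changes of -5.24, -2.23 and -6.85 in wild-type male, knock-in male and wild-type female tumours, and Slc26a3 of -4.95, -2.14 and -6.40, all past the threshold. Of 12 markers of differentiated colonocytes 10 were tested. In wild-type male tumours 8 fell, in knock-in male tumours 7 and in wild-type female tumours 8, with none higher, and the median log2 fold changes were -1.66, -0.86 and -2.32. Summed over these markers the level was 2374 to 2905 CPM in wild-type male tumours, 3675 to 4108 CPM in knock-in male tumours and 2320 to 3495 CPM in wild-type female tumours, against 5373 to 14109 CPM in normal colon. Car4 and this sum, both on the log2 scale, had an r of 0.95 over the 21 libraries, 0.88 over the normal and 0.60 over the tumour libraries. With the smooth muscle sum the r was 0.90, -0.25 and 0.80 in the same order. The part of either cell type in the fall of Car4 was not tested.

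**Figure D3:**
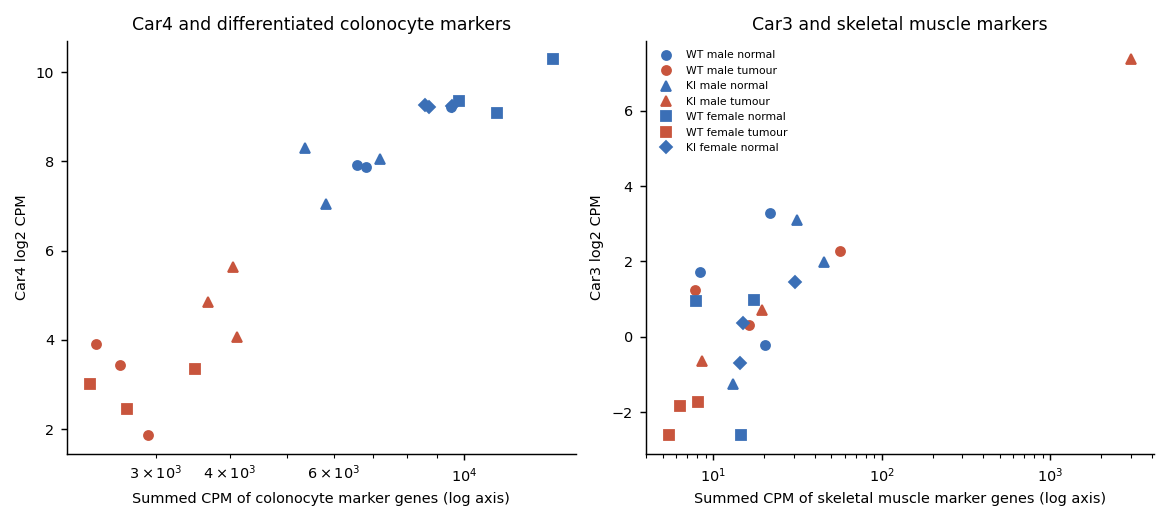
Left, log2 CPM of Car4 against the summed CPM of colonocyte marker genes (horizontal log axis); right, log2 CPM of Car3 against the summed CPM of skeletal muscle marker genes (horizontal log axis). Each point is 1 of 21 libraries, blue for normal colon and red for tumours; in the right panel knock-in male tumour replicate 3 stands alone at 3014 CPM of muscle markers.

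Car2, the fast cytosolic enzyme, fell in tumours of wild-type mice of both sexes. In wild-type males it stood at 295, 196 and 596 CPM in normal colon and at 83.9, 171 and 143 CPM in tumours, and in wild-type females at 408, 742 and 473 CPM and at 101, 79.8 and 106 CPM. In both the tumours lay below the normal libraries without overlap. On the log2 scale Car2 changed by -1.46 (SE 0.41, adjusted p = 0.0111 with edgeR) in the males and by -2.50 (SE 0.42, adjusted p = 0.000139 with edgeR) in the females. The male call depended on the fit. With only the 6 compared libraries its edgeR adjusted p was 0.0540, and 0.0841 with their replicate numbers as pairs. It also depended on single libraries: without wild-type male normal replicate 3 the log2 fold change was -0.90 (edgeR adjusted p = 0.0969), and without wild-type male tumour replicate 1 it was -1.22 (edgeR adjusted p = 0.0541). In knock-in males Car2 stood at 172, 285 and 297 CPM in normal colon and at 253, 129.6 and 100.3 CPM in tumours, where the groups overlapped (log2 fold change -0.64, SE 0.40, adjusted p = 0.260 with edgeR). Knock-in and wild-type male tumours differed by 0.29 (SE 0.40, adjusted p = 0.644 with edgeR).

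Car1, a cytosolic enzyme abundant in colon epithelium and in red blood cells, passed in 1 comparison. In wild-type females it stood at 171, 878 and 426 CPM in normal colon and at 58.0, 78.1 and 44.4 CPM in tumours, all of them below the lowest normal library. On the log2 scale this was a change of -3.03 (SE 0.83, adjusted p = 0.00694 with edgeR). With the 3 libraries numbered 152 to 154 given their own term, 2 of which are wild-type female tumours, it was -1.89 (edgeR adjusted p = 0.222). In wild-type males Car1 stood at 231, 132 and 587 CPM in normal colon and at 114, 226 and 172 CPM in tumours, which overlapped (log2 fold change -0.90, SE 0.77, adjusted p = 0.390 with edgeR).

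In knock-in males 1 tumour library decided the value of Car1. The normal libraries were at 70.3, 158 and 121 CPM and the tumours at 679, 169.7 and 52.4 CPM, so that tumour replicate 1 was far above and replicate 3 below the normal libraries. The log2 fold change of 1.37 (SE 0.78, adjusted p = 0.219 with edgeR) became -0.12 (edgeR adjusted p = 0.922) without tumour replicate 1. That library also had the lowest summed level of 6 Hox genes of the distal colon, 119 CPM, against 125 CPM in wild-type female tumour replicate 1 and 190 to 566 CPM in the other 19 libraries. Car1 stood at 58.0 CPM in that wild-type female tumour library. Over the tumour libraries Car1 and the Hox sum had a Pearson r of -0.11 on the log2 scale. The part of position along the colon in the level of Car1 was not tested. Red cell RNA could not be judged from haemoglobin genes, which were listed at 0 in every library. The red cell gene Alas2 had means of 7.68 to 19.8 CPM over the 7 groups, and the part of red cell RNA in the level of Car1 was not tested.

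Car1 and Car2 moved together within the tissues. Their Pearson r of log2 CPM was 0.95 over the 12 normal and 0.86 over the 9 tumour libraries. Car2 and Car4 had 0.93 over the normal but 0.40 over the tumour libraries. The genes most like Car2 over the 21 libraries were Lhfpl2, B3gnt2 and Retsat, each at r = 0.95. For Car1 the closest were Cisd3 (r = 0.86), Fnip2 (0.81) and Ssfa2 (0.81), so Car1 had no neighbour as near as those of Car4.

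Car9 encodes a transmembrane enzyme with its active site outside the cell, and it is widely used as a marker of hypoxia because the hypoxia-inducible factor drives it. Promoter letters were available for 3 of the 8 genes, Car9, Car4 and Car12, and are shown because Car9 is the family's textbook hypoxia target and the others are its fellow outer-surface enzymes. Each run, from RefSeq (GRCm38.p6, plus strand), holds 150 bases before the table's start site and 10 bases from it on. Capitals mark the core of a hypoxia response element (ACGTG or GCGTG, searched on both strands, so CACGT is ACGTG on the minus strand).
Car9, chr4:43506876-43507035: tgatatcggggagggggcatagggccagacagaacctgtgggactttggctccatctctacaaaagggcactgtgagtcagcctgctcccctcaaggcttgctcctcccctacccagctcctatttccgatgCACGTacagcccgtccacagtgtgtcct
Car4, chr11:84957604-84957763: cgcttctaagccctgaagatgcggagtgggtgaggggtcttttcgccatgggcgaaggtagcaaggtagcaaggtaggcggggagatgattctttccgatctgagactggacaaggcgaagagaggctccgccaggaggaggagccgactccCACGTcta
Car12, chr9:66713536-66713695: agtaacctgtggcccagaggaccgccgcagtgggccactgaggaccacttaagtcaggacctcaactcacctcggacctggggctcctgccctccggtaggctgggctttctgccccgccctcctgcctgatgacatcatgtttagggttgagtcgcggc
The Car9 run has the core at bases -18 to -14, the Car4 run at bases 3 to 7 counted from the start site, and the Car12 run has none. In the full table, 43.77% of 32851 promoters of 300 bases hold such a core, and 19.62% hold ACGTG, so a match in a window of 300 bases is common. The runs shown hold 160 bases, a length for which no share was taken. The table's start site for Car12 lies inside the gene span given above.

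Car9 fell in tumours of wild-type mice, by less than Car4 or Car2. It stood at 43.8, 40.4 and 60.4 CPM in wild-type male normal colon and at 24.6, 38.1 and 22.7 CPM in tumours, and at 50.8, 60.8 and 57.3 CPM against 29.1, 30.6 and 37.2 CPM in wild-type females. No tumour library reached the lowest normal library of its sex. On the log2 scale Car9 changed by -0.79 in males (SE 0.20, adjusted p = 0.00561 with edgeR) and by -0.80 in females (SE 0.20, adjusted p = 0.00275 with edgeR). The median over the 10 epithelial markers was -0.47 in males and -0.79 in females. Per 1000 CPM of summed epithelial markers, Car9 was at 4.92 ± 0.574 in male normal colon and 3.66 ± 1.01 in tumours, and at 5.10 ± 0.695 and 4.62 ± 0.575 in females, and on this scale the libraries overlapped in both sexes. With the 6 male libraries alone and paired by number, the edgeR adjusted p was 0.0633. In knock-in males normal colon was at 37.2, 43.4 and 51.3 CPM and tumours at 39.4, 47.8 and 33.0 CPM, which overlapped (log2 fold change -0.13, SE 0.20, adjusted p = 0.657 with edgeR). Knock-in exceeded wild-type male tumours by 0.52 on the log2 scale (SE 0.20, adjusted p = 0.0821 with edgeR), which did not pass. The exons of Car9 share 214 bases with an antisense gene, and the strand setting of the counting is not given in the sources used here, so reads of the 2 genes cannot be told apart there.

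Other genes of the hypoxia response moved in both directions in wild-type tumours. Of 12 such genes, wild-type male tumours had 2 higher, Ndrg1 (log2 fold change fold change 0.68), a stress-induced protein, and Bnip3 (0.65), a mitophagy receptor, and 1 lower, Pdk1 (-0.64), which restrains pyruvate oxidation. Wild-type female tumours had 1 higher, Ndrg1 (0.59), and 5 lower, among them Ankrd37 (-1.61), Egln3 (-0.94) and P4ha1 (-0.88). In knock-in male tumours none of the 12 passed. Over all tested genes 35.7%, 49.1% and 20.4% passed in wild-type male, wild-type female and knock-in male tumours. The counts of the list were near or under these shares. The median over the list was 0.07, -0.36 and 0.06 in wild-type male, wild-type female and knock-in male tumours, against medians near 0.01 over all tested genes. The genes most like Car9 were Ddx26b, Stambpl1 and Dnase1l1, each with a Pearson r of 0.88.

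Car13, a cytosolic enzyme found in many tissues, was the gene whose tumour effect differed between the genotypes. Wild-type male normal colon was at 23.5, 16.2 and 22.2 CPM and the tumours at 9.43, 10.8 and 9.76 CPM, a fall without overlap (log2 fold change -1.06, SE 0.25, adjusted p = 0.00347 with edgeR). In knock-in males normal colon was at 16.1, 22.6 and 12.2 CPM and tumours at 23.4, 36.5 and 19.1 CPM, where the tumours were on average higher but overlapped the normal libraries (log2 fold change 0.63, SE 0.24, adjusted p = 0.0660 with edgeR). Every knock-in male tumour was above every wild-type male tumour, and the log2 fold change between them was 1.41 (SE 0.25, adjusted p = 0.00422 with edgeR), a level 2.66-fold higher. This call held when any 1 of the 21 libraries was left out, with log2 fold changes of 1.08 to 1.60, and under all 12 other alternatives. The tumour effects of the 2 genotypes differed by 1.69 (SE 0.35, adjusted p = 0.0406 with edgeR). That difference passed in 8 of 21 fits with 1 library left out and in 6 of 12 other alternatives.

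Wild-type female normal colon was at 21.6, 21.3 and 24.8 CPM and the tumours at 16.2, 18.8 and 14.7 CPM, without overlap but short of the threshold, at a log2 value of -0.45 (SE 0.24, adjusted p = 0.141 with edgeR). The difference from the male tumour effect was 0.61 (SE 0.35, adjusted p = 0.474 with edgeR) and did not pass. Per 1000 CPM of summed epithelial markers the direction turned, from 2.04 ± 0.223 in female normal colon to 2.37 ± 0.272 in tumours. Knock-in female normal colon was at 26.1, 16.3 and 19.5 CPM. The genes most like Car13 were Krcc1 (Pearson r = 0.92), Cd302 (0.90) and Rnf139 (0.89). Over the 9 tumour libraries Car13 and Car12 had an r of 0.87, against 0.18 over the 12 normal libraries.

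Car12, a transmembrane enzyme like Car9, was higher in male tumours of knock-in mice than in those of wild-type mice. The wild-type tumours were at 8.86, 6.11 and 4.14 CPM and the knock-in tumours at 11.8, 75.4 and 23.6 CPM, without overlap but with a wide spread. On the log2 scale the difference was 2.52 (SE 0.80, adjusted p = 0.0463 with edgeR). Without knock-in male tumour replicate 2, the highest library, it was 1.42 (edgeR adjusted p = 0.263), and the call held in 8 of 21 fits with 1 library left out and in 6 of 12 other alternatives. Male normal colon was at 22.1, 14.9 and 10.7 CPM in wild-type and at 29.8, 13.2 and 7.95 CPM in knock-in mice, and neither comparison of tumour with normal colon passed (log2 fold change fold change -1.31, edgeR adjusted p = 0.209, and 1.13, edgeR adjusted p = 0.282). With only the 6 compared libraries the wild-type fall, which was without overlap, did pass (-1.33, edgeR adjusted p = 0.0261, and 0.00307 with their numbers as pairs). In females Car12 stood at 10.8, 28.6 and 6.66 CPM in wild-type normal colon, at 9.37, 12.0 and 12.0 CPM in tumours and at 18.5, 4.61 and 34.8 CPM in knock-in normal colon, so all 3 groups overlapped. Its nearest genes were Jag1, a Notch ligand (Pearson r = 0.85), Barx2 (0.81) and Klrg2 (0.80).

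Car8 encodes a protein that has lost the catalytic zinc site and binds a calcium channel of the endoplasmic reticulum, and its level was low everywhere. It stood at 2.59, 3.49 and 2.30 CPM in wild-type male tumours, 12 to 36 counts a library, and at 7.15, 5.03 and 7.54 CPM in knock-in male tumours, without overlap. Knock-in tumours were 2.42-fold higher (log2 fold change 1.27, SE 0.37, adjusted p = 0.0320 with edgeR). The call was lost when any 1 of these 6 libraries was left out (edgeR adjusted p = 0.0504 to 0.119), with log2 fold changes of 1.15 to 1.41. It was also lost in 4 of 12 other alternatives, with the replicate block (edgeR adjusted p = 0.0509), with libraries 152 to 154 as a covariate (edgeR adjusted p = 0.0686) and with GC and length offsets, alone (edgeR adjusted p = 0.0770) or with the block (edgeR adjusted p = 0.128). In the other 5 groups the libraries ranged from 2.31 to 7.99 CPM, and Car8 passed in no comparison of tumour with normal colon. Its nearest genes were Gxylt1 (Pearson r = 0.80), Manea (0.79) and Abca5 (0.79).

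Car3, a slow cytosolic enzyme known for its abundance in skeletal muscle, fat and liver, was near the detection limit in most libraries. It stood at 0.476, 1.48 and 164 CPM in knock-in male tumours, so that replicate 3 alone carried 1671 counts. The other 20 libraries ranged from 0 to 9.64 CPM, and the 3 wild-type female tumours had 1, 1 and 0 counts, for which no fold is given. The log2 fold change of knock-in against wild-type male tumours was 4.59 (SE 1.74, adjusted p = 0.0862 with edgeR), and without replicate 3 it was -1.26 (edgeR adjusted p = 0.521). The same library stood apart in skeletal muscle genes. Summed over 8 markers it held 3014 CPM against 5.44 to 56.5 CPM in the other 20 libraries, with 1417 CPM of Myh4, a fast muscle myosin, 576 CPM of Acta1, skeletal actin, and 264 CPM of Ckm, muscle creatine kinase. The genes most like Car3 were Tnnt3, a fast muscle troponin (Pearson r = 0.87), Cmya5 (0.85) and Myh1 (0.84). The part of muscle RNA in the level of Car3 was not tested. The sum over 8 adipocyte markers was 47.8 CPM in that library and 44.6 and 48.2 CPM in replicates 1 and 2, with Adipoq at 0 in all 3, and the part of fat RNA was not tested either.

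Counted by comparison, 0 of the 8 genes rose and 4 fell in wild-type male tumours (Car4, Car13, Car2 and Car9), where 35.7% of all tested genes passed, 16.5% higher and 19.3% lower. The median log2 fold change of the 8 was -1.05, against 0.01 over all tested genes. In wild-type female tumours 0 rose and 4 fell (Car4, Car1, Car2 and Car9), where 49.1% of tested genes passed, 25% higher and 24% lower. The median was -1.65, and -0.80 over the 7 genes other than Car3, against 0.01 over all tested genes. In knock-in male tumours 1 fell, Car4, where 20.4% of tested genes passed, 10.4% higher and 9.97% lower, and the median was 0.52 against 0.01. Tumours lay below normal colon without overlap for 5 of the 8 genes in wild-type males (26.4% of all tested genes), for 5 in wild-type females (28.6%) and for 1 in knock-in males (17.5%).

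**Figure D4:**
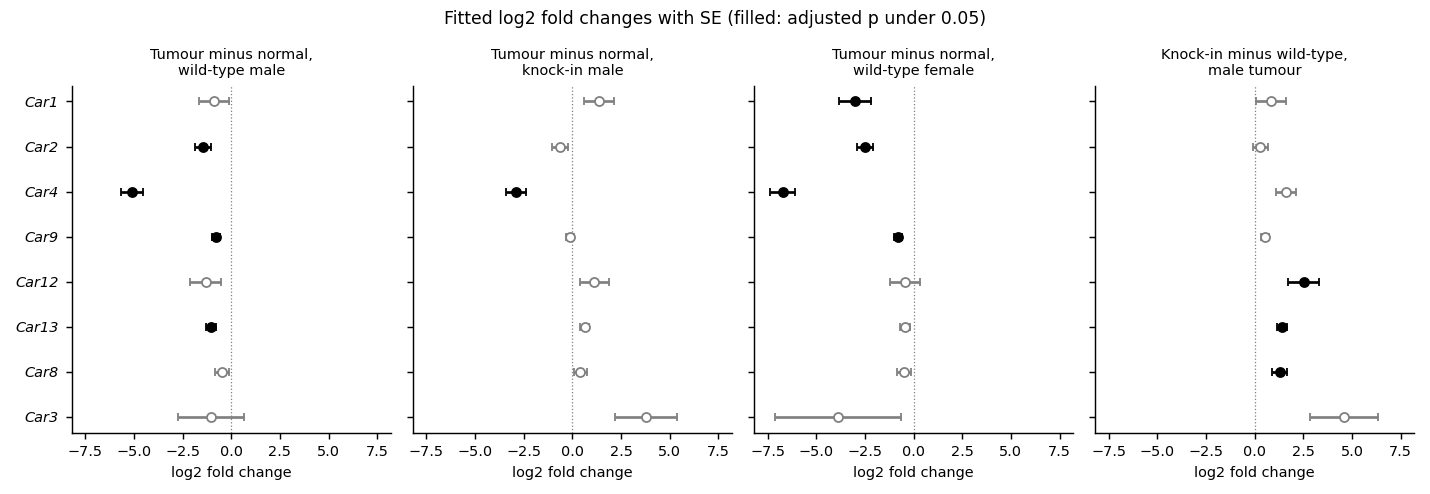
Fitted log2 fold change (horizontal axis) of each gene in 4 comparisons, with bars of 1 SE; filled black points passed an adjusted p under 0.05 and open grey points did not. All 8 points of both wild-type panels lie left of 0, and all 8 points of the knock-in minus wild-type male tumour panel lie right of 0, 3 of them filled, though Car1, Car2 and Car3 fall left of 0 when 1 knock-in tumour library is left out; the Car3 point in the wild-type female panel rests on 0 or 1 count in each tumour library.

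Knock-in against wild-type male tumours gave 3 higher members, Car13, Car8 and Car12, and none lower, where 14.5% of tested genes passed, 9.3% higher and 5.23% lower. All 8 log2 fold changes were positive, with a median of 1.34 against 0.05 over all tested genes. In 3 genes the sign rested on 1 library: without knock-in male tumour replicate 1 Car1 was at -0.66 and Car2 at -0.24, and without replicate 3 Car3 was at -1.26. In 4 genes, the 3 called and Car4, the libraries did not overlap, as did those of 20.3% of tested genes in that direction. The wild-type male tumours used here are those compared with normal colon above. In knock-in against wild-type male normal colon no member passed, with edgeR or at an unadjusted p under 0.05 (0 of 8), and DESeq2 and limma voom also called 0. There 0.0126% of tested genes passed. In female normal colon 0 members passed the edgeR test, 0 had an unadjusted p under 0.05, and DESeq2 and limma voom called 0, where 16% of tested genes passed. Car9 was lower in knock-in females without overlap, at 36.6, 46.9 and 45.6 CPM (log2 fold change -0.39, SE 0.20, adjusted p = 0.186 with edgeR), as were 18.2% of tested genes in that direction. In the same comparison 5 of 10 smooth muscle markers were higher (median 1.51), with sums of 7365 to 10405 CPM against 2110 to 4939 CPM, and 2 of 10 epithelial markers were lower; their part was not tested. The interaction of knock-in and sex in normal colon had 0 members past the threshold with edgeR, DESeq2 or limma voom and 0 at an unadjusted p under 0.05 with edgeR, where 2.54% of tested genes passed.

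The difference of tumour effects between knock-in and wild-type males gave 1 member past the threshold, Car13, where 1.51% of tested genes passed, 1.14% in its direction. All 8 differences were positive and 4 had an unadjusted p under 0.05, a rule for which no share over all genes was taken. The male tumour libraries are those compared between the genotypes above, so these signs are not independent of that comparison. With 1 library left out the difference of Car3 ran from -1.09 to 5.84. Between the sexes of wild-type mice 0 members passed for the tumour effect with edgeR, where 1.12% of tested genes passed, and 0 with DESeq2 or limma voom. At an unadjusted p under 0.05 with edgeR there was 1, again without a share over all genes. Car4 had a difference of -1.62 there (SE 0.74, adjusted p = 0.346 with edgeR) and Car1 of -2.13 (SE 1.10, adjusted p = 0.420 with edgeR).

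Between the sexes no member passed in normal colon with edgeR, but in knock-in mice the 3 abundant genes were higher in all female libraries. There Car2 stood at 593, 638 and 733 CPM in females against 172, 285 and 297 CPM in males, Car1 at 486, 688 and 855 CPM against 70.3, 158 and 121 CPM, and Car4 at 601, 592 and 616 CPM against 132, 268 and 316 CPM. None of these overlapped, as was so for 10% of tested genes in that direction. The log2 fold changes were 1.38 (SE 0.40, adjusted p = 0.116 with edgeR) for Car2, 2.54 (SE 0.81, adjusted p = 0.147 with edgeR) for Car1 and 1.34 (SE 0.48, adjusted p = 0.192 with edgeR) for Car4. With edgeR 0 members passed, where 0.584% of tested genes passed. At an unadjusted p under 0.05 there were 3, and DESeq2 called 2 and limma voom 3. No share over all genes was taken for these rules, so their counts cannot be set against 0.584%. In the authors' deposited table the male minus female log2 fold change was -2.56 (adjusted p = 0.0230) for Car1 and -1.40 (adjusted p = 0.0104) for Car2.

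In wild-type normal colon 0 members passed between the sexes with edgeR, where 15.9% of tested genes passed. There 1 had an unadjusted p under 0.05, DESeq2 called 0 and limma voom 2 (Car4 and Car8), rules without a share over all genes here. Car4 was 1.19 higher in females on the log2 scale (SE 0.48, adjusted p = 0.104 with edgeR), and 1.78 (edgeR adjusted p = 0.0274) without wild-type male normal replicate 3. Car1 (0.63, edgeR adjusted p = 0.612) and Car2 (0.58, edgeR adjusted p = 0.340) overlapped between the sexes. Of the colonocyte markers 3 of 10 were higher in these females (median 0.70), and of the smooth muscle markers 3 of 10 were lower (median -1.12), whose part in the values was not tested. In knock-in normal colon 0 of 10 of either list passed between the sexes, with medians of 0.41 for colonocyte and 0.48 for smooth muscle markers. The colonocyte sums there still lay apart, at 8581 to 9542 CPM in females against 5373 to 7185 CPM in males. Epithelial sums did too, at 9991 to 10468 against 8529 to 8952 CPM, while smooth muscle sums overlapped. Their part in the values was not tested. In wild-type tumours 0 members passed with edgeR, where 0.86% of tested genes passed. There 1 had an unadjusted p under 0.05, DESeq2 called 0 and limma voom 1 (Car13), again without a share over all genes. Car13 and Car12 were higher and Car1 and Car3 lower in female tumours without overlap, as were 16% and 15.3% of tested genes in those directions, 31.2% in all. Car13 differed by 0.74 (SE 0.26, adjusted p = 0.118 with edgeR).

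Of 16 exchangers, channels and pumps that carry bicarbonate, chloride, protons or related ions, wild-type male tumours had 8 lower and 2 higher, with a median log2 fold change of -0.60. Slc26a2, a sulfate exchanger, had -2.92, Slc4a4, the basolateral sodium-bicarbonate cotransporter, -2.71, and Slc9a2, a sodium-proton exchanger, -2.61. The 2 higher were Slc4a5 (2.06) and the lactate exporter Slc16a3 (1.82). Wild-type female tumours had 8 lower and 3 higher, with a median of -0.70, and knock-in male tumours 3 lower and 0 higher, with a median of -0.37. Between knock-in and wild-type male tumours, where 9.3% of tested genes were higher and 5.23% lower, 6 were higher and 0 lower. Of these Slc26a2 (1.65), the chloride and bicarbonate channel gene Cftr (1.55), the lactate transporter Slc16a1 (1.29) and Slc9a2 (1.29) had the highest values, and the list's median was 0.34. Slc26a3 had 2.02 there (SE 0.66, adjusted p = 0.0532 with edgeR) and did not pass. Of the colonocyte markers 3 were higher and 0 lower in that comparison, with a median of 0.80, and of the 10 epithelial markers 0 were higher and 1 lower, with a median of 0.04. Smooth muscle markers had a median of 1.22 there with 0 of 10 past the threshold, and sums of 953 to 1116 CPM in knock-in against 251 to 852 CPM in wild-type tumours. Adipocyte markers summed to 44.6 to 48.2 CPM against 15.8 to 31.4 CPM, with 1 of 4 tested genes higher. Adipoq, Plin1, Retn and Lep of that list did not pass the filter on low counts, so the sum says little of them. Enteric neuron and glia markers had 1 of 8 higher, macrophage markers 2 of 7 lower, and the distal Hox genes 0 of 6 and the red cell genes 0 of 2 past the threshold. Skeletal muscle markers had 5 of 7 higher. Their sums were 8.58, 19.3 and 3014 CPM in the knock-in tumours, so only replicate 3 stood out. The part of any of these cells in the difference of Car13, Car12 and Car8 was not tested.

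Against normal colon the same lists moved in part. Over all tested genes 35.7% passed in wild-type male, 20.4% in knock-in male and 49.1% in wild-type female tumours. Enteric neuron and glia markers had 5 of 8 lower in wild-type male, 2 lower in knock-in male, and 3 lower and 1 higher in wild-type female tumours. Macrophage markers had 1 higher and 1 lower of 7 in wild-type male, 0 in knock-in male, and 2 higher and 1 lower in wild-type female tumours. Adipocyte markers had 2, 0 and 1 of 4 lower in the same order and the distal Hox genes 2, 1 and 1 of 6, with none higher. Of 2 red cell genes tested 1 was higher, in wild-type male tumours. Of 7 skeletal muscle genes 4 were higher, in knock-in male tumours, where replicate 3 alone held a high sum (3014 CPM). Epithelial markers had 1 higher and 6 lower of 10 in wild-type male, 1 higher and 1 lower in knock-in male, and 1 higher and 9 lower in wild-type female tumours, and hypoxia genes 1 higher and 1 lower of 12 between the genotypes in male tumours.

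The other 8 genes of the family were low. Car5b, a mitochondrial enzyme, had group means of 3.23 to 9.81 CPM, and Car15 of 2.48 to 3.43 CPM. Car14, a membrane enzyme, had 0.356 to 2.81 CPM, Car11, a catalytically inactive member, 0.353 to 1.48 CPM and Car7 0.103 to 1.37 CPM. Car5a, Car6 and Car10 had means under 0.5 CPM in every group and were not tested. Car14 was higher in male tumours of knock-in mice than in those of wild-type mice (log2 fold change 2.25, SE 0.63, adjusted p = 0.0277 with edgeR), at 2.25 ± 1.70 against 0.356 ± 0.402 CPM. This rests on 11, 0 and 3 counts in the wild-type tumours, 2 of them at or under the floor of 3 counts, and on 1.36, 1.18 and 4.21 CPM in the knock-in tumours, highest in replicate 3. Car7 was higher in knock-in than in wild-type female normal colon (log2 fold change 2.31, SE 0.69, adjusted p = 0.0290 with edgeR), at 1.37 ± 0.242 against 0.230 ± 0.202 CPM. The wild-type libraries held 9, 0 and 2 counts of it, 2 of them under the floor. None of the 5 tested passed in a comparison of tumour with normal colon.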

How the data were processed

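Total RNA was depleted of ribosomal RNA and copied with random hexamers, per the labels' protocols. Trimmomatic, HISAT2, featureCounts and DESeq2 and the build mm10 are named in the submitters' processing notes, without versions; the annotation and strand setting are not given in the sources used here. The deposited counts are raw counts per gene from featureCounts, per the file headers. A second deposited table holds the authors' log2 fold changes and adjusted p-values, quoted only where named. Among the count columns, 2 of knock-in female normal colon carry the same name and were used as unnumbered replicates a and b beside replicate 1.

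edgeR 4.0.16 in R 4.3.3 was run on all 21 libraries (TMM scaling, filterByExpr by group, robust quasi-likelihood F test, two-sided, 1 coefficient per group, Benjamini-Hochberg over 15936 genes) for 9 pairs of groups and 3 interactions. SEs were derived from the fold change and F. Log2 CPM used a prior count of 2, and levels per kb the GENCODE exon length. The script was tested on simulated data. All 8 genes and the other family genes are named, list members by size among those past the threshold or over 50 CPM, and for each gene the 3 with the highest Pearson r, without members and predicted genes. Adipoq, Plin1, Retn, Lep and Alas2 were named after their values were seen. The members and the 12 gene lists were chosen with earlier results of these data known. The main fit had no term for pairs. By the rule used, sample replicate numbers in the labels were taken as pairs, in alternative fits only, for wild-type male tumours and normal colon. Their same-number correlations of deviations were 0.169, 0.174 and 0.215, with no statement of a shared animal. Between knock-in and wild-type male normal colon, which cannot share an animal, these correlations were 0.461, -0.206 and -0.07. A positive value therefore cannot show pairing. Other comparisons were not paired. Replicate libraries differed beyond sampling noise in all 21 pairs within groups (chi-square per degree of freedom 6.6 to 63.4). Alternatives used DESeq2 1.42.0 and limma 3.58.1, other scaling and filters, blocks, covariates and each library left out.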

Additional observations from a re-analysis of the deposited data

Results flagged for a closer look

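The tumour effect on Car13 differed between knock-in and wild-type males by 1.69 on the log2 scale (SE 0.35, edgeR adjusted p = 0.0406), which the interaction term tested directly. The wild-type tumours were lower than normal colon in all 3 libraries. The knock-in tumours were on average higher but overlapped normal colon, and that rise did not pass (edgeR adjusted p = 0.0660). The call of the difference was lost in most fits that left out 1 library and under several other alternatives.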

How the results depend on the processing

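No member that passed changed direction under any alternative. Of 2669 values of members that did not pass, 94 changed sign under an alternative and still did not pass (3.52%). With 1 library left out, the members called ranged from 3 to 4 in wild-type male, 1 to 2 in knock-in male and 4 to 4 in wild-type female tumours against normal colon, from 1 to 4 between the genotypes in male tumours, from 0 to 1 between the sexes in normal colon of either genotype, and from 0 to 1 for the interaction of genotype and tumour; leaving out 1 library gave 0 in the other comparisons. Between the genotypes in male tumours, 3 in the main fit became 5 with DESeq2 and 1 with offsets for GC content and transcript length, alone or with the replicate block. Between the sexes the edgeR count was 0; in wild-type tumours it became 1 with limma voom, 2 with only the compared groups and 1 with libraries 152 to 154 as a covariate; in wild-type normal colon 2 with limma voom; in knock-in normal colon 2 with DESeq2, 3 with limma voom and 2 with only the compared groups. The interaction of genotype and tumour, 1 in the main fit, became 2 with DESeq2 and 0 with only the compared groups, libraries 152 to 154 as a covariate or GC and length offsets. Shares over all tested genes were taken for the main edgeR test and for overlap only, not for these alternatives. The causes were not tested.

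The replicate block, fitted on 18 numbered libraries, gave 0 for that interaction, as did the same 18 libraries without the block and the block with GC and length offsets. In wild-type male tumours, where the numbers were taken as pairs, the block on 18 libraries changed no member call. With only the 6 compared libraries Car2 did not pass and Car12 did, without the block (edgeR adjusted p = 0.0540 and 0.0261) and with it (edgeR adjusted p = 0.0841 and 0.00307). The block in that fit, chosen after the data were seen, further lost the call of Car9 (edgeR adjusted p = 0.0633). GC and length were chosen after seeing the data and known for 95.29% of tested genes. Car3, Car8, Car7 and Car14 had few counts, which limits their precision.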
